A study of Mus musculus with 4 samples.

Results

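The genes described here are the subunits of the transcription factor NF-kB, the inhibitors that NF-kB itself induces, and the cytokine gene Tnf, in mature mouse bone marrow neutrophils with and without serum response factor (SRF, encoded by Srf). Members were chosen by name: Nfkb1, Nfkb2, Rel, Rela and Relb encode the subunits, Nfkbia, Nfkbie, Nfkbiz and Tnfaip3 the inhibitors, and Tnf the ligand. All 10 were found among the 23284 genes of the authors' deposited table, and all 10 were among the 12634 that the authors tested. There were 2 samples of genotype WT and 2 of genotype Srf KO, 4 in all, each of neutrophils sorted as Gr1 high, 7/4 high and side scatter high. No treatment or age is given in the labels used here, nor the allele or Cre driver behind the knockout, and they do not say whether samples of a genotype came from separate animals. The table holds 1 pooled value per genotype in FPKM (mapped fragments scaled to transcript length and library size), so values of single samples, read depth and the spread between samples could not be had. Every fold below is Srf KO over WT, every ± is a standard error obtained as the authors' absolute fold over their absolute test statistic, and a gene is said to have risen or fallen where the authors' adjusted p (a Benjamini-Hochberg q-value over all tested genes) was at most 0.05. With total RNA of a sorted population, fewer cells of a type and less RNA per cell cannot be told apart.

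NF-kB is a family of dimers assembled from proteins that share the Rel homology domain. In resting cells the dimers are held in the cytoplasm by inhibitors of the IkB class, and signals from tumour necrosis factor, interleukin 1 or Toll-like receptors lead to phosphorylation and destruction of the inhibitor, entry of the dimer into the nucleus and transcription of inflammatory genes. Among those genes are the ones for IkB proteins and for the ubiquitin-editing enzyme TNFAIP3, which end the response, and in neutrophils the pathway drives cytokine production and delays death.

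As checks on the labels, Srf went from 13.7 FPKM in WT to 0.439 FPKM in Srf KO (authors' deposited table; log2 fold -4.97 ± 0.27). Neutrophil identity genes were abundant: the 10 tested of 16 listed markers summed to 42451 FPKM in WT against 31020 FPKM in Srf KO, as read from the authors' deposited table. Of those 10, 5 were called lower, the chemokine receptor gene Cxcr2 furthest (596 to 201 FPKM). The most abundant, Retnlg, was not called (24805 to 17117 FPKM). The 1 called higher, named after its values were seen, was Mpo (179 to 314 FPKM). Elane and Prtn3 had positive log2 folds too (0.60 ± 1.27 and 0.61 ± 1.70) but were not called. Whether the neutrophils of the 2 genotypes differed in stage of maturation was not tested. The defining genes S100a8, S100a9, Ltf, Camp and Ngp carry the authors' status for an excess of reads and so have no test. Over all tested genes, 35.5% were called, 17.7% higher and 17.8% lower, and the median log2 fold was 0.08.

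The promoters are shown because several members are themselves induced through kB sites, the decameric elements that NF-kB binds, and because SRF binds another element, the CArG box. RefSeq promoter windows on GRCm38.p6 (the assembly of mm10), running from 250 bases before to 50 after each annotated start, were matched by symbol for 7 of the 10 members, with 10 windows in all; Nfkb1, Relb and Nfkbiz had none. The kB consensus was searched on both strands and overlapping matches were merged. It was present in 7 of the 10 windows, belonging to 5 of the 7 members, against 4.51% of all 32851 windows. Windows of a gene can overlap, so the same match can count in several of them. The CArG box was present in 0 of the 10 windows, against 1.63% of all windows, and a kB and a CArG match overlapped in 1 window of the whole set. At so low a share, a count of 0 CArG matches in so few windows is near the background and does not set the members apart. The 150 bases upstream of 7 starts follow, 5′ to 3′ on the strand of the gene, with kB matches in capitals. They were chosen to set the subunits that fell (Rel, Nfkb2, Rela) beside the inhibitors Nfkbia and Tnfaip3 and beside Tnf.
Rel, chr11:23770970-23771119, minus strand: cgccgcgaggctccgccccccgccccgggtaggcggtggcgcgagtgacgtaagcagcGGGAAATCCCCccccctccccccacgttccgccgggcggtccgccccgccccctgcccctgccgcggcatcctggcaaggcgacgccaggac
Nfkb2, chr19:46304587-46304736, plus strand, start of its main transcript: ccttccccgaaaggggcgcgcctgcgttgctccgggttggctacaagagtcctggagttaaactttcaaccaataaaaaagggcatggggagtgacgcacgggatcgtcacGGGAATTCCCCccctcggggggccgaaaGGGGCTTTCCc
Rela, chr19:5637391-5637540, plus strand: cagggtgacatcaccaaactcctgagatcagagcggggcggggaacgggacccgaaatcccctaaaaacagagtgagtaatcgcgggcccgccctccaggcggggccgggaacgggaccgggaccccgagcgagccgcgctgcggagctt
Nfkbia, chr12:55492648-55492797, minus strand: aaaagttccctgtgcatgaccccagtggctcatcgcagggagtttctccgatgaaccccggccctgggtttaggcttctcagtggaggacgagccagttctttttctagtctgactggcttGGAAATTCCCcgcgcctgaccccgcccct
Tnfaip3, chr10:19015411-19015560, minus strand, upstream start: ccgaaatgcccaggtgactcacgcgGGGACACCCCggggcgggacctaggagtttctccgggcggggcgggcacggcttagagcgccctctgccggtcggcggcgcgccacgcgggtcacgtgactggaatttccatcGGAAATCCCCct
Tnfaip3, chr10:19011964-19012113, minus strand, internal start: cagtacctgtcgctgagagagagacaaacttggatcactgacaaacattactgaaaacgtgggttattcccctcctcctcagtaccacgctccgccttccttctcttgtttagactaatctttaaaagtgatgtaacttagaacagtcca
Tnf, chr17:35202008-35202157, minus strand: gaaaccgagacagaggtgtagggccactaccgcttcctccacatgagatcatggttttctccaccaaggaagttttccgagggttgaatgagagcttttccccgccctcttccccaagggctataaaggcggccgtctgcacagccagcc
Counting the base before the start as position -1, Rel carried its match at -92 to -82, and the printed Nfkb2 start carried matches at -39 to -29 and at -11 to -2. Its start at chr19:46305695, not printed, had matches at -236 to -227 and at 11 to 20. Its start at chr19:46305930, also not printed, had a match at -225 to -216, which is the same stretch as that at 11 to 20. The match of Nfkbia lay at -29 to -20, that of Nfkbie at -106 to -97, and those of the upstream Tnfaip3 start at -125 to -116 and -12 to -3. No match lay in the windows of Rela, Tnf or the internal Tnfaip3 start. Bases outside the windows were not searched, so matches further from a start are not covered. Members with a match and members without one were found among the genes that fell, and a match is a description of these letters and not a measured site.

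Most of the subunit genes fell with loss of Srf. Of the 5 genes the authors' deposited table called 4 lower and 0 higher, beside 17.8% of all tested genes called lower, and the log2 fold of the remaining gene, Relb, was negative too but not called. The median log2 fold of the 5 was -0.68. Summed over the 5 genes, the level went from 108 to 68.9 FPKM, so that the Srf KO sum was 63.7% of the WT sum.

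Rel, which encodes the lymphoid and myeloid subunit c-Rel (chr11:23741729-23770970, minus strand, 10 exons), stood at 7.35 FPKM in WT against 2.75 FPKM in Srf KO, as read from the authors' deposited table. It was the member that fell furthest, 2.67-fold, with a log2 fold of -1.42 ± 0.24 and an adjusted p of 1.11e-07 by the authors' test, and 3.11% of tested genes had a lower fold. Nfkb2 (chr19:46304737-46327156 as the table gives it, a locus shared there with Psd), whose product is a precursor processed in the noncanonical pathway, fell from 11.1 to 5.77 FPKM by the authors' deposited table. Its log2 fold was -0.94 ± 0.23, with an authors' adjusted p of 0.000282. The antisense gene Psd, with which its reads could be confused in a library that keeps no strand, was at 0.426 FPKM in WT against 0.265 FPKM in Srf KO there.

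Rela, which encodes the main transactivating subunit (chr19:5637490-5648130, plus strand, 11 exons), fell from 34.4 to 21.5 FPKM (authors' deposited table). The log2 fold was -0.68 ± 0.19 and the authors' adjusted p 0.00194. Nfkb1, which encodes the precursor of the partner that RelA most often binds (chr3:135584655-135691547, minus strand, 25 exons), fell from 49.9 to 34.7 FPKM, or 1.44-fold, by the authors' deposited table. Its log2 fold was -0.53 ± 0.18 and the authors' adjusted p 0.0148, the call nearest the threshold among the members. With folds adjusted for transcript length and expression level, the log2 fold of Nfkb1 was -0.21 and its call ended (adjusted p 0.429, recomputed from the authors' statistic). Relb, the partner of the processed Nfkb2 product (chr7:19606222-19629438, minus strand, 12 exons), was at 5.28 FPKM in WT against 4.11 FPKM in Srf KO (log2 fold -0.36 ± 0.24, authors' adjusted p 0.245).

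The subunit pool was made up mostly of Nfkb1 and Rela in both genotypes. By the authors' FPKM values Nfkb1 made up 46.2% of the subunit sum in WT and 50.4% in Srf KO, and Rela 31.9% and 31.3%. The share of Nfkb2 was 10.3% in WT and 8.38% in Srf KO, and that of Relb 4.88% and 5.97%. Rel went from 6.80% to 4.00%, so that Relb stood above Rel in Srf KO and below it in WT. With 1 pooled value per genotype these shares have no replicate error.

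**Figure D1:**
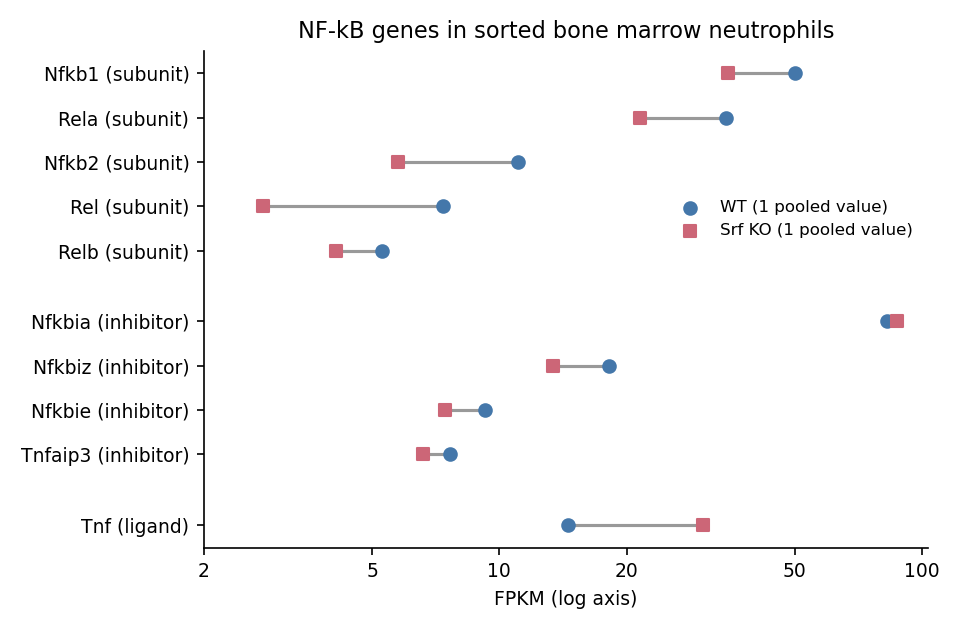
Level of each NF-kB gene in FPKM (log axis) in WT (circles) and Srf KO (squares), 1 pooled value per genotype, grouped into subunits, inhibitors and ligand. Every subunit lies further left in Srf KO, Nfkbia lies at 82.6 and 87.1 FPKM, and Tnf lies at 14.5 and 30.3 FPKM.

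Of the 4 feedback inhibitors, 0 were called in either direction by the authors' test, and 1 (Nfkbiz) had an unadjusted p under 0.05. Beside 35.5% of all tested genes called, a count of 0 among so few genes is not far from the background. Their median log2 fold was -0.26, and they summed to 118 FPKM in WT against 115 FPKM in Srf KO. Nfkbia, which encodes IkB-alpha, the inhibitor resynthesised soonest after activation, was the most abundant member in both genotypes. It stood at 82.6 FPKM in WT against 87.1 FPKM in Srf KO (authors' deposited table; log2 fold 0.08 ± 0.26, 95% interval -0.44 to 0.59, authors' adjusted p 0.848). That fold was the same as the median of all tested genes to 2 decimals, and its sign varied with the scaling, from -0.17 after adjustment for length to 0.17 after adjustment for length and expression. The gene lies at chr12:55489410-55492647 in GENCODE M21 (mm10, minus strand, 6 exons), whereas the table gives a longer locus that it shares with 4 other rows. Psma6, the most abundant of those, was at 98.7 FPKM in WT against 127 FPKM in Srf KO there and was not called.

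Nfkbie, which encodes IkB-epsilon (chr17:45555716-45563168, plus strand, 6 exons), was at 9.23 FPKM in WT against 7.43 FPKM in Srf KO, as read from the authors' deposited table. Its log2 fold was -0.31 ± 0.22 (authors' adjusted p 0.254). Nfkbiz (chr16:55811377-55838641, minus strand, 13 exons in its main transcript) is counted among the inhibitors here by its IkB family name. It encodes the nuclear protein IkB-zeta, which acts on a subset of NF-kB target genes, and whether it inhibits in these cells was not tested. It was at 18.2 FPKM in WT against 13.4 FPKM in Srf KO, as read from the authors' deposited table, with a log2 fold of -0.44 ± 0.19 and an adjusted p of 0.0583 by the authors' test. Centring all folds on their median took Nfkbiz past the threshold (log2 fold -0.52, adjusted p 0.0233, recomputed from the authors' statistic). Tnfaip3 (chr10:19000910-19015410, minus strand) was at 7.63 FPKM in WT against 6.59 FPKM in Srf KO (authors' deposited table; log2 fold -0.21 ± 0.20, authors' adjusted p 0.429). The intervals of Nfkbie (-0.74 to 0.11) and Tnfaip3 (-0.61 to 0.18) leave room for a fall as large as that of Nfkb1.

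That subunits were called and inhibitors were not does not show that they differed. Of the 20 pairs of an inhibitor and a subunit, the log2 fold of the inhibitor was the higher in 19, the exception being Nfkbiz against Relb. The pairs reuse the folds of 4 inhibitors and 5 subunits, so they are not 20 separate observations. Taking the standard errors of a pair as independent, the 95% interval of the difference, not adjusted for the number of pairs, left out 0 in 8 of the 20. All 4 inhibitors were among those 8 against Rel, and Nfkbia, Nfkbie and Tnfaip3 against Nfkb2. The log2 fold of Nfkbia was above that of Rela by 0.75 ± 0.32 (interval 0.12 to 1.39) and above that of Rel by 1.49 ± 0.36 (0.80 to 2.19), whereas against Nfkb1 the interval of -0.02 to 1.23 held 0. All of these use folds without adjustment. After adjustment for transcript length alone the log2 folds lay closer together, at -0.17 for Nfkbia, -0.77 for Rela and -1.13 for Rel. With adjustment for length and expression they were 0.17 for Nfkbia, -0.54 for Rela and -1.19 for Rel. Intervals of the pairs were not computed from adjusted folds, so which pairs leave out 0 may depend on that choice. In FPKM, the ratio of Nfkbia to Rela was 2.40 in WT and 4.05 in Srf KO, and that of Nfkbia to Rel 11.2 and 31.7.

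Tnf, which encodes the cytokine tumour necrosis factor, an activator of the pathway and a target of it, was the only member that rose. It went from 14.5 to 30.3 FPKM, or 2.09-fold, in the authors' deposited table (log2 fold 1.06 ± 0.20, adjusted p = 2.9e-06 by the authors' test), and 91.8% of tested genes had a lower fold. Tnf was the fifth most abundant member in WT and the third in Srf KO, where Rela had fallen to a level below it. Tnf (chr17:35199391-35201996, minus strand, 4 exons) lies between 2 other genes of its family. Ltb, which encodes lymphotoxin beta and ends 3085 bases away, fell from 88.6 to 38.5 FPKM (authors' deposited table; log2 fold -1.20 ± 0.19, adjusted p = 1.52e-08 by the authors' test). Lta, which encodes lymphotoxin alpha and lies 1168 bases away on the other side, was at 0.105 FPKM in WT against 0.252 FPKM in Srf KO and was not called (log2 fold 1.27 ± 0.78). The adjacent genes Tnf and Ltb thus moved in opposite directions.

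**Figure D2:**
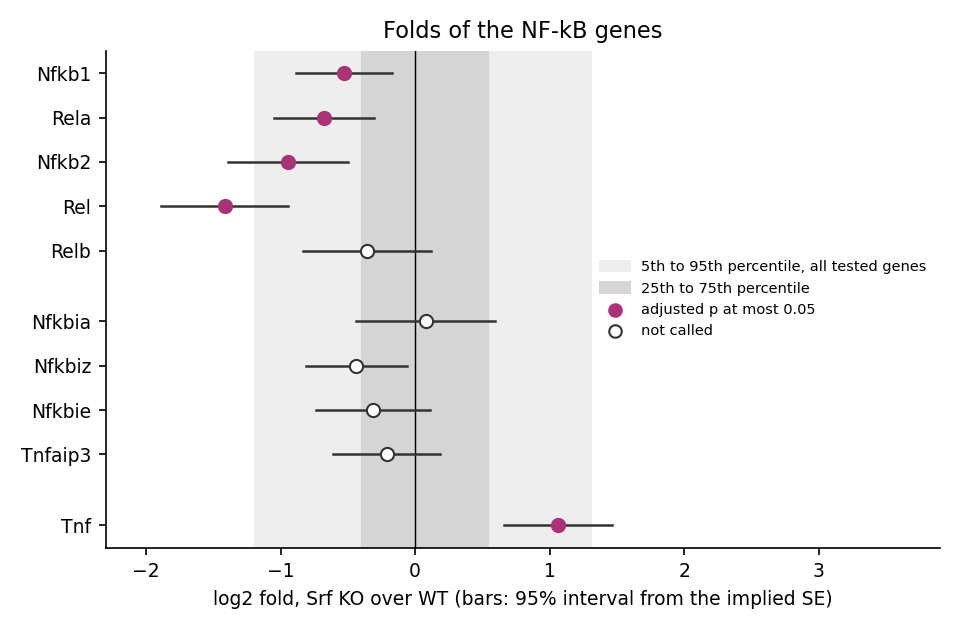
Log2 fold (Srf KO over WT) of each NF-kB gene with its 95% interval from the implied standard error; filled points were called by the authors' test, and grey bands hold the middle of all tested genes. The folds run from -1.42 (Rel) to 1.06 (Tnf), and the bands from -0.40 to 0.54 (25th to 75th percentile) and from -1.19 to 1.31 (5th to 95th).

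Many markers of other cell types than neutrophils were called higher in Srf KO, as Tnf was. Of 114 tested markers in 7 lists (123 listed), 80 were called higher and 5 lower in Srf KO, beside 17.7% and 17.8% of all tested genes (authors' deposited table). The markers had list medians from 0.65 for B and plasma cells to 1.79 for T and NK cells. Their summed levels in Srf KO were between 1.14 and 2.30 times those in WT, and 1 tested marker, the platelet gene Gp6, was listed at 0 in WT. Macrophages are a known source of tumour necrosis factor, and of 18 tested monocyte and macrophage markers 13 were called higher and 3 lower. That is 72.2% higher and 16.7% lower, the share called lower being near the 17.8% of all tested genes. The 3 called lower, named after their values were seen, were the general macrophage genes Csf1r (58.5 to 27.4 FPKM), Emr1 (16.8 to 10.4 FPKM) and Cd68 (64.6 to 33.9 FPKM). A sort on high Gr1, 7/4 and side scatter would be meant to leave macrophages out. The sum of the 18 went from 1422 to 1852 FPKM, most of it from Ly6c2 (1144 to 1544 FPKM, not called), and Spic, a transcription factor gene of red pulp and marrow macrophages, rose furthest (1.65 to 8.08 FPKM), both as the authors' deposited table gives them. The 18 tested T and NK cell markers summed to 59.5 FPKM in WT against 137 FPKM in Srf KO, and the 15 dendritic cell markers to 208 and 417 FPKM. The 18 B and plasma cell markers summed to 172 and 297 FPKM, and the 13 erythroid markers to 179 and 284 FPKM. The 16 megakaryocyte and platelet markers summed to 117 and 133 FPKM, with 9 called higher and 1 lower. The 1 called lower, Rgs18 (85.4 to 55.6 FPKM), made up most of that sum in WT. For the 16 markers of eosinophils, basophils and mast cells the sums were 212 and 431 FPKM. The part of these cells in the level of Tnf, or of any subunit, was not tested.

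**Figure D3:**
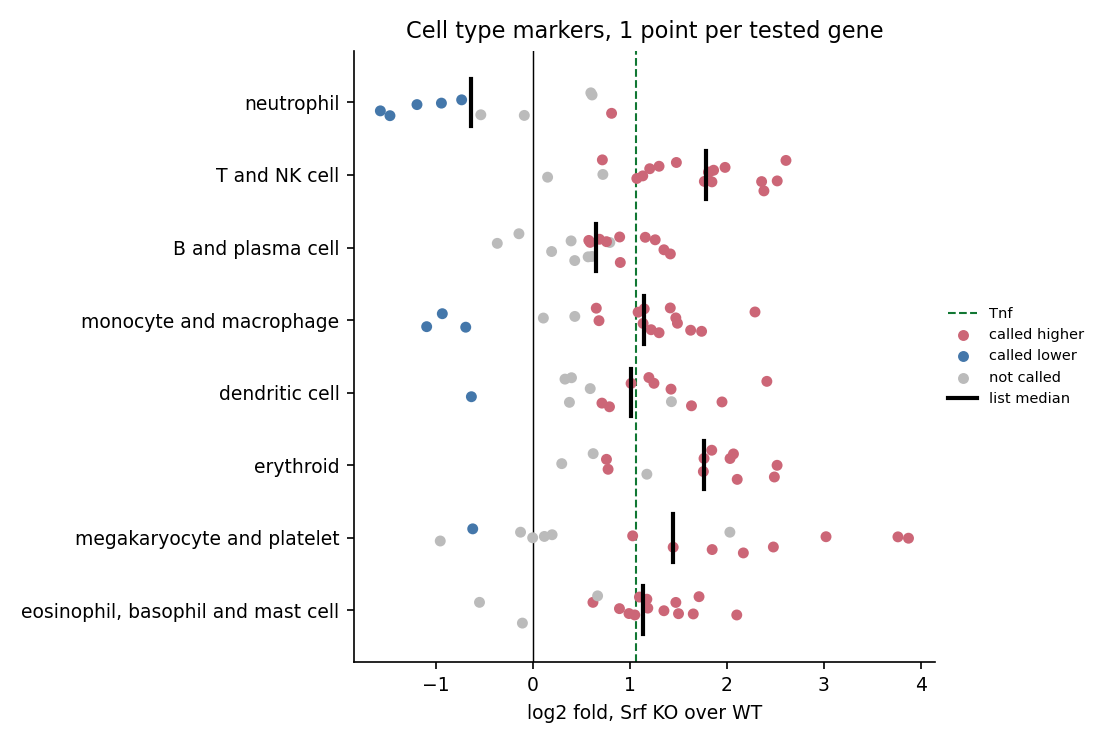
Log2 folds (Srf KO over WT) of tested cell type markers, 1 point per gene coloured by the authors' call, with list medians as bars and the fold of Tnf (1.06) as a dashed line; markers at 0 in a genotype are left out. The neutrophil median lies at -0.63 and the other 7 medians between 0.65 and 1.79.

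At the level of transcripts, 7 members had a single annotated transcript in the tables and repeat their gene value there, and 3 (Nfkb2, Nfkbiz and Tnfaip3) had several. Of 13 tested transcripts of the members, 3 were called lower and 1 higher, beside 14.0% and 13.1% of all tested transcripts (27.2% in either direction). The transcript of Rel was given the status of not tested in the isoform, start-site and coding-sequence tables, although its gene value was tested. Of 13 tested start-site groups of the members 3 were called lower and 1 higher (16.1% and 15.1% of all, 31.2% in either direction), and of 12 tested coding sequences 3 lower and 1 higher (15.8% and 14.4% of all, 30.2% in either direction). These tables are built from the same reads as the gene table and are no independent support.

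For Nfkb2 the transcript called lower was that from the start whose promoter is printed above (NM_001177369, 23 exons in its GENCODE counterpart). It went from 9.58 to 4.67 FPKM (authors' deposited table; log2 fold -1.04 ± 0.24, authors' adjusted p 0.000274). It made up 86.3% of the gene in WT and 80.9% in Srf KO. The transcript NM_019408 was at 1.05 FPKM in WT against 0.117 FPKM in Srf KO, and NM_001177370 at 0.468 and 0.984 FPKM, and neither was called (adjusted p 0.0660 and 0.432 in the authors' deposited table). Nfkbiz was given almost wholly to NM_001159395, at 17.5 FPKM in WT against 13.4 FPKM in Srf KO. The transcript NM_001159394 from an internal start stood at 0.695 FPKM in WT and was listed at 0 in Srf KO (authors' adjusted p 0.0677), and NM_030612 was listed at 0 in both genotypes. For Tnfaip3 the authors' deposited table assigned 87.2% of the WT level and 100% of the Srf KO level to NM_001166402. That transcript begins at the internal start, which had no kB match in its window. Its level was 6.66 FPKM in WT against 6.59 FPKM in Srf KO, with a log2 fold of -0.01 ± 0.44. The transcript from the upstream start, NM_009397, stood at 0.978 FPKM in WT and was listed at 0 in Srf KO, with an authors' adjusted p of 0.500. The GENCODE counterparts of these Tnfaip3 transcripts have 8 and 9 exons and lengths of 4334 and 4422 bases, and how well reads were assigned between them was not tested.

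**Figure D4:**
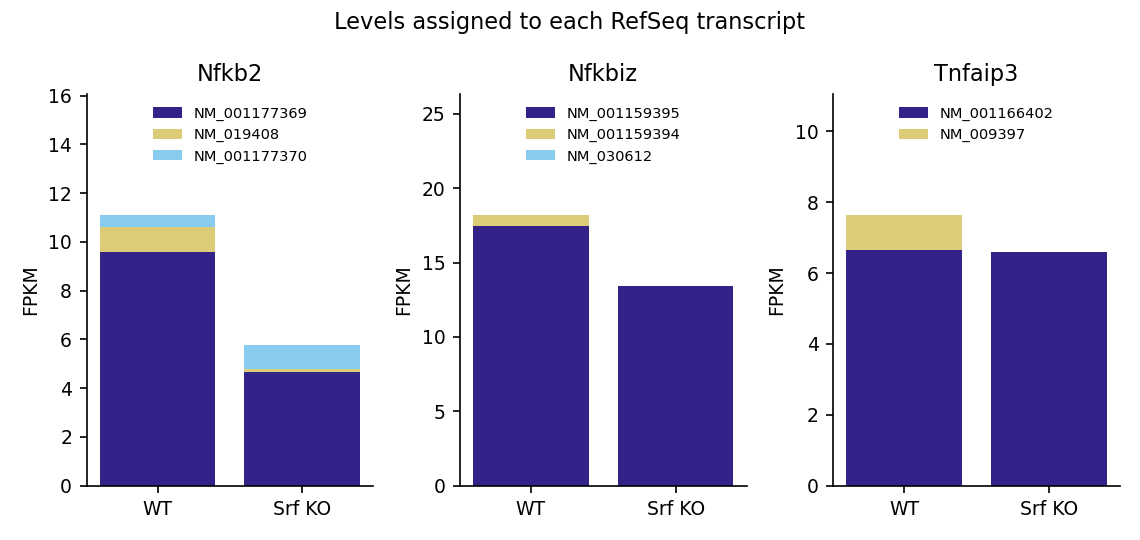
Stacked FPKM of the RefSeq transcripts of Nfkb2, Nfkbiz and Tnfaip3 in WT and Srf KO, 1 pooled value per genotype. In each gene a single transcript holds most of the level: 9.58 and 4.67 FPKM for Nfkb2, 17.5 and 13.4 FPKM for Nfkbiz, 6.66 and 6.59 FPKM for Tnfaip3.

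Other genes of the pathway were read from 7 lists holding 111 genes, of which 102 were tested; 33 were called lower and 11 higher in Srf KO by the authors' test, beside 17.8% and 17.7% of all tested genes. Their median log2 fold was -0.32, against 0.08 over all tested genes. Of the other IkB family genes, 1 of 4 was called lower and 0 higher. That was Bcl3, which encodes a nuclear IkB protein that binds the processed products of Nfkb1 and Nfkb2, and it fell from 22.9 to 10.4 FPKM (log2 fold -1.14 ± 0.21) in the authors' deposited table. Among 14 tested negative regulators, 6 were called lower and 1 higher, with a median of -0.51. Rnf11, a partner of TNFAIP3, fell from 78.4 to 37.4 FPKM, the RNase gene Zc3h12a from 8.42 to 4.19 FPKM, N4bp1 from 41.0 to 22.4 FPKM and Tnip1, whose product binds TNFAIP3, from 23.4 to 13.5 FPKM, all in the authors' deposited table.

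Of 12 tested IkB kinases and their activators, 2 were called lower and 0 higher (median -0.27), a share of 16.7% lower that is near the 17.8% of all tested genes. In the authors' deposited table these were Map3k3, which fell from 119 to 34.1 FPKM (log2 fold -1.81 ± 0.18), and Map3k14, the kinase that starts the noncanonical pathway through Nfkb2, which fell from 9.82 to 3.85 FPKM (-1.35 ± 0.21). The catalytic kinase genes Ikbkb (24.0 and 19.3 FPKM) and Chuk (12.5 and 14.0 FPKM) were not called. Among 19 adaptors of the TRAF, RIP and ubiquitin ligase classes, 6 were called lower and 1 higher (median -0.28). Traf5 (3.42 to 1.43 FPKM), the antifungal signalling adaptor gene Card9 (80.8 to 40.9 FPKM) and the linear ubiquitin ligase gene Rnf31 (23.4 to 13.1 FPKM) fell, while Traf1 rose from 0.500 to 1.41 FPKM (authors' deposited table).

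The genes of both receptors for tumour necrosis factor fell. Tnfrsf1a, which encodes the main signalling receptor for tumour necrosis factor, went from 185 to 108 FPKM (log2 fold -0.78 ± 0.18), and Tnfrsf1b, the gene for the other receptor, from 33.6 to 22.6 FPKM (-0.57 ± 0.18), both as the authors' deposited table gives them. In their list of 12, 3 genes were called lower and 2 higher (median -0.41), or 25% and 16.7%, near the 17.8% and 17.7% of all tested genes. The third that fell was Tnfrsf14 (32.1 to 11.5 FPKM), and Cd40, a receptor of antigen-presenting cells, rose from 1.30 to 2.71 FPKM by the authors' deposited table.

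Of 32 tested target genes of NF-kB, 13 were called lower and 5 higher, with a median of -0.41. That is 40.6% lower and 15.6% higher, beside 17.8% and 17.7% of all tested genes, so the share called higher is near the background. The furthest falls were those of Il1rn (117 to 13.4 FPKM), which encodes the interleukin 1 receptor antagonist, the inflammasome gene Nlrp3 (40.9 to 7.09 FPKM), Il1b (257 to 54.5 FPKM) and Ptgs2, whose product makes prostaglandins (2.95 to 0.630 FPKM), all as the authors' deposited table gives them. The log2 fold of Nlrp3 was -2.53 ± 0.19 there. The 5 called higher, named after their values were seen, were Cd69, Cd83, Ptges, Cxcl10 and Sdc4, of which none exceeded 10 FPKM in either genotype. In WT the most abundant target, Lcn2, was at 11068 FPKM and in Srf KO at 10418 FPKM, and was not called by the authors' test.

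**Figure D5:**
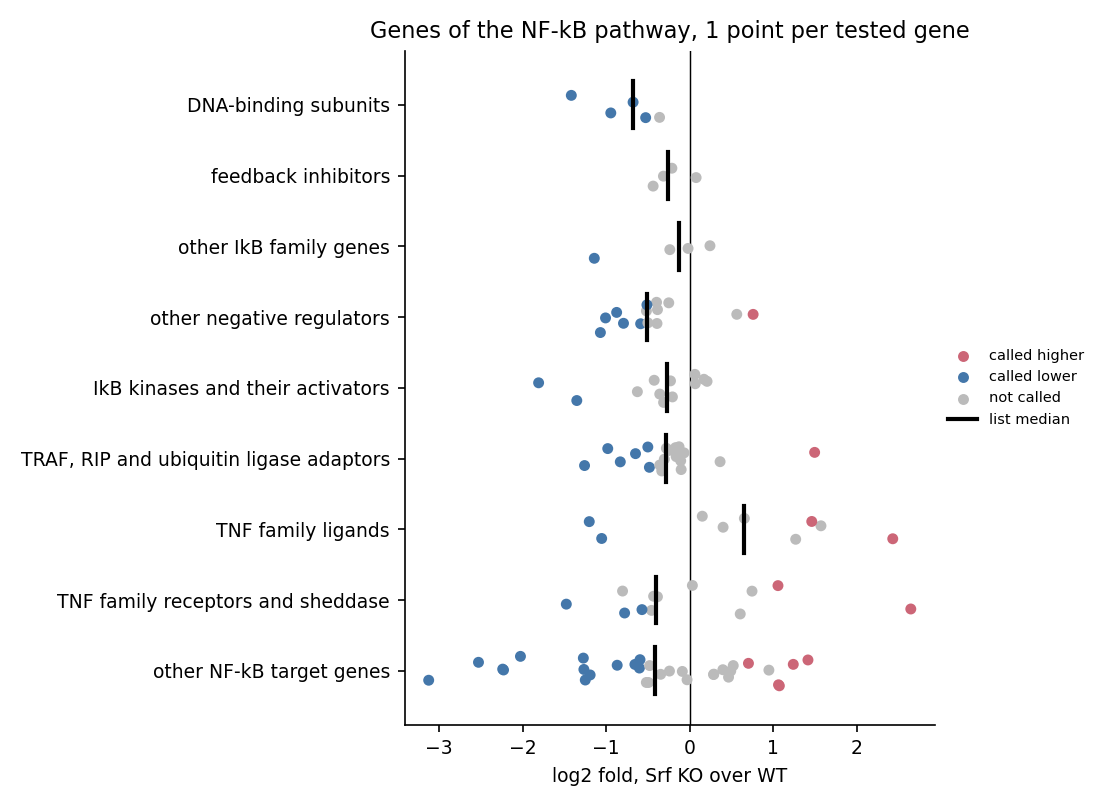
Log2 folds (Srf KO over WT) of tested genes of the NF-kB pathway, 1 point per gene coloured by the authors' call, with list medians as bars. The medians lie between -0.68 (subunits) and -0.13 (other IkB family genes), except that of the TNF family ligands at 0.66.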

How the data were processed

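RNA of sorted bone marrow neutrophils was sequenced from 2 WT and 2 Srf KO samples with a TruSeq RNA v2 library kit, per the labels' protocols; that kit keeps no strand. Per the submitters' processing notes, CASAVA 1.8.1, TopHat2 2.0.0, Cufflinks 2.0.0 and mm10 were used; their settings are not given in the sources used here. The authors deposited FPKM as 1 pooled value per genotype, with their log2 fold, score (test statistic), p-value and q-value, for genes, isoforms, start-site groups and coding sequences. The fold was turned to Srf KO over WT. A normal tail probability of the statistic, taken on both sides, gave their p-value on checking, and Benjamini-Hochberg adjustment over the tested rows gave their q-value. The implied standard error is the absolute fold over the absolute statistic (0.18 to 0.26 for the members), and 95% intervals use it as a normal error. How far it holds the spread between samples is not known, depth is unknown, and no analysis without a sample could be made.

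Members and lists were chosen with earlier results of these data known. Genes outside the members were named by rule, with Srf added. Per pathway list, these were up to 4 called genes with the largest absolute fold. They had to be above 0 in both genotypes and at 1 FPKM or more in at least 1. Per marker list, the rule took the most abundant tested gene and the called gene with the largest absolute fold. A called marker at 0 in 1 genotype has no fold and was ranked first, which gave Gp6. Not all markers taken by the rule are named in the text. Psma6, Psd, Lta, Ikbkb, Chuk, Lcn2, Tnfsf13b, Fasl, Csf1r, Emr1, Cd68, Mpo, Elane, Prtn3 and the 5 targets called higher stand outside that rule. Transcript lengths came from GENCODE M21 and were found for 99.1% of tested genes; a running median of the folds was subtracted over 50 bins of length, smoothed over 5 bins, and then over expression in the same way. Code was tested on simulated data. Computations ran in Python 3.11.15 with pandas 2.3.3, numpy 2.4.6 and scipy 1.17.1, and figures in matplotlib 3.10.9.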

Additional observations from a re-analysis of the deposited data

How the results depend on the processing

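The counts of members called, 4 lower and 1 higher, stayed at 3 to 5 lower and 1 higher with thresholds of 0.01 and 0.10, minimum levels of 1 and 5 FPKM, centred folds and folds adjusted for transcript length or for length and expression. The shares of all genes called moved too, from 17.8% lower and 17.7% higher to 20.5% and 14.5% with centred folds. They were 18.6% and 14.4% after adjustment for length, and 15.3% and 12.8% after adjustment for length and expression. Asking for a change of at least 2-fold left 1 lower, Rel, and 1 higher, Tnf. The median log2 fold of the members ranged from -0.48 to -0.31. Of the pathway genes, 18 of the 33 called lower had changed at least 2-fold, and with a minimum of 5 FPKM 4 were called higher in place of 11. Shares of all tested genes are not given here for the other thresholds, the minimum levels or the 2-fold change. Counts under those settings, of members and of pathway genes, therefore stand without a background. Over single members, 73 comparisons with an alternative stayed on the same side of the threshold, 5 lost a call and 2 gained one. Analyses without each sample were not run, since the tables hold pooled values. No paired analysis was possible because the deposited columns carry no samples.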

Other observations

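Within the TNF family ligands, the calls among 9 tested genes were 2 lower and 2 higher, or 22.2% each way, near the 17.8% and 17.7% of all tested genes. Ltb (88.6 to 38.5 FPKM) and Tnfsf14, which encodes the ligand LIGHT (57.6 to 27.8 FPKM), fell in the authors' deposited table. Tnfsf10, which encodes the death ligand TRAIL, rose from 0.607 to 1.67 FPKM, and Fasl, chosen after its values were seen, from 0.106 to 0.572 FPKM there. Tnfsf13b, which encodes the B cell survival factor BAFF, was at 55.2 FPKM in WT against 61.4 FPKM in Srf KO and was not called by the authors' test.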
